A study of Arabidopsis thaliana with 6 samples.

Results

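In rosette centres of Arabidopsis thaliana, 109 of 22746 probe sets (0.479%) had a high signal in low light and a lower, level signal in medium and high light. They were chosen from log2 signal, with signals below 20 set to 20. Medium minus low light had to be at most -0.7 at both CO2 levels, high minus medium light had to lie between -0.5 and 0.5 at both, and the signal had to be 50 or more in both low-light arrays. The light differences below were therefore used to choose these probe sets, and they are described without a test. There was no further array on which to measure them again.

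Of the 109 probe sets, 60 carried 1 gene name each, for 59 genes. Another 4 matched several genes, and 45 are unnamed here.

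The series title concerns the genetic basis of stomatal number when carbon dioxide is raised. Plants of accession Col-0, the common laboratory line, were measured at 3 light levels (low, medium and high) in high CO2, and in the same light levels in ambient CO2. There is a single ATH1 array for each combination, 6 in all and without replicates, and an array reads a gene through sets of short oligonucleotide probes. All plants were at growth stages 3.20 to 3.50, and total RNA came from the middle of the rosette out to leaf 11. They grew in compost treated with Intercept insecticide, with no added nutrients, at 21 degrees C and 50 to 60% humidity, with 10 h of light a day, after 3 days of stratification at 4 degrees C. How bright each light level was, and how much CO2 each air held, the labels used here do not say. The array of high light with high CO2 is labelled high CO2 in its title and normal air in its atmosphere entry, and it was placed by its title.

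In green leaves light drives photosynthesis, and low light lowers the supply of sugars. Plants short of sugar are known to turn on genes for the breakdown of stored lipid, protein and amino acids and to slow growth, partly through the SnRK1 energy-sensing kinase. Low light also changes cell expansion and surface wax.

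The 3 measured genes of the green-leaf marker list (RCA, SBPASE and PRK, enzymes of photosynthetic carbon fixation) had signals between 2036.2 and 4800.1 on the 6 arrays, as in green tissue. The meristem gene CLV3 had signals between 1.4 and 8.6 and the root-hair expansin gene EXPA7 between 14.7 and 26.8. The flower, seed, guard-cell and phloem marker genes were not analysed here. Each array had a trimmed mean signal of 100.01, and medians lay between 40.7 and 43.2. In whole tissue, fewer cells of a type and less RNA per cell cannot be told apart.

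Over the 109 probe sets the median signal in low, medium, then high light was 191.1, 79.6 and 92.9 in high CO2 and 195.9, 89.6 and 95.0 in ambient CO2. The median fold of low over medium light was 2.08 in high CO2, with a range from 1.63 to 18.5, and 1.98 in ambient CO2, with a range from 1.63 to 19.0. A fold of 2 or more was found for 66 probe sets in high CO2 and 50 in ambient CO2, for 36 at both CO2 levels, and a fold of 3 or more at both for 8. Both low-light signals lay above all 4 other signals for all 109 probe sets. The lower of the 2 low-light signals was a median of 1.64 times the highest of the other 4 signals, counted as at least 20, and this ratio was lowest for ORA47 (1.07).

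High minus medium light had a median of 0.07 log2 units in high CO2, with 62 probe sets above 0 and 42 below, and of 0 in ambient CO2, with 52 above and 52 below. The difference between low and medium light was larger in high CO2 for 71 probe sets and larger in ambient CO2 for 38. No share over all probe sets was taken for this count or for the counts of a fold of 2 or more. The rule applied to a single CO2 level also gave more probe sets in high CO2 (429) than in ambient CO2 (292). For 96 of the 109 the differences between low and medium light at the 2 CO2 levels lay 0.5 log2 units or less apart. For 1 they lay 1 or more apart. The rule set a limit on both differences, and no share over all probe sets was taken here either. Nothing is read from these counts about the 109.

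**Figure D1:**
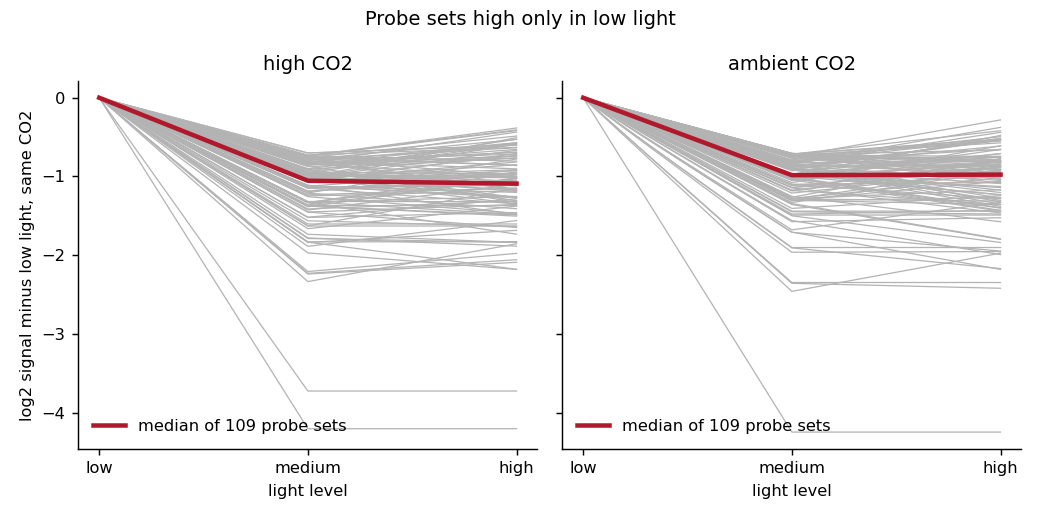
Each grey line is 1 of the 109 probe sets, plotted as its log2 signal (signals below 20 set to 20) minus its low-light value at the same CO2 level, in high CO2 on the left and ambient CO2 on the right. The red median line reaches -1.05 at medium and -1.09 at high light in high CO2, and -0.98 at both in ambient CO2.

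The largest difference among the named genes was that of AT2G05540. AT2G05540, which encodes a glycine-rich protein, had signals of 369.0, 13.0 and 11.3 in low, medium, then high light in high CO2 and of 380.1, 17.2 and 11.4 in ambient CO2. With signals below 20 counted as 20 it was 18.5-fold higher in low than medium light in high CO2 and 19.0-fold higher in ambient CO2. All 4 of its signals in medium and high light lay below 20, where MAS5 signals are noisy, so its fold is set by that floor. Of the 109 probe sets, 4 had all 4 signals in medium and high light below 20.

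AT3G56060, of the GMC oxidoreductase family, had signals of 114.1, 24.3 and 27.4 in low, medium, then high light in high CO2 and of 120.5, 23.5 and 22.5 in ambient CO2. AT5G05960, of the family of lipid transfer proteins and seed storage albumins, had 161.3, 46.7 and 45.1 in high CO2 and 189.9, 48.7 and 49.0 in ambient CO2. In both genes the 2 low-light arrays stood well apart and the other 4 arrays lay close together. The fold of low over medium light was 4.70 in high CO2 and 5.13 in ambient CO2 for AT3G56060, and 3.45 and 3.90 for AT5G05960.

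AT2G24550 and AT5G03120 had a larger difference in high CO2. AT2G24550 had signals of 136.3, 29.5 and 34.6 in low, medium, then high light in high CO2, against 127.0, 44.9 and 35.5 in ambient CO2. AT5G03120 had 122.7, 24.3 and 33.9 in high CO2, against 102.7, 40.1 and 29.5 in ambient CO2. The low-light signals of each gene were close at the 2 CO2 levels, and the medium-light signal was the one that differed. In AT3G15630 the fold of low over medium light was 3.09 in high CO2 and 1.85 in ambient CO2, from signals of 413.9, 133.9 and 186.2 in high CO2 and 321.3, 173.5 and 142.4 in ambient CO2.

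AT1G01240 and RALFL32 had the larger difference in ambient CO2. AT1G01240 had signals of 160.9, 72.5 and 76.7 in low, medium, then high light in high CO2 and of 232.7, 78.1 and 80.9 in ambient CO2. RALFL32, a gene of the RALF family of secreted signalling peptides, had 84.3, 41.5 and 38.8 in high CO2 and 113.7, 40.8 and 42.2 in ambient CO2. Here the low-light signal differed between the CO2 levels, and the other 4 signals were nearly equal.

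AT1G06980 had signals of 62.7, 22.9 and 14.5 in low, medium, then high light in high CO2 and of 56.2, 13.4 and 15.3 in ambient CO2. AT1G54740, AT1G06980 and AT1G22330 completed the 12 named genes with the largest differences, together with AT2G15960, described below. AT1G22330, a gene with an RNA-recognition motif, was read by 2 probe sets, and both were among the 109. One had signals of 95.1, 37.7 and 28.6 in low, medium, then high light in high CO2 and of 87.5, 35.9 and 35.2 in ambient CO2. The other had 69.5, 26.8 and 24.5 in high CO2 and 72.1, 28.4 and 20.8 in ambient CO2, with folds of low over medium light of 2.59 in high CO2 and 2.54 in ambient CO2. The 2 probe sets read the same RNA samples and are not replicates of a condition. No other gene of the group had a second single-gene probe set.

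Unnamed probe sets also stood among the largest differences. 252367_at had signals of 264.8, 2.7 and 4.6 in low, medium, then high light in high CO2 and of 101.8, 3.5 and 3.7 in ambient CO2. 262304_at had 325.0, 68.8 and 76.3 in high CO2 and 422.1, 76.7 and 107.4 in ambient CO2. 267238_at had low-light signals of 290.2 in high CO2 and 246.3 in ambient CO2, and 248163_at had 90.6 and 77.2. 252367_at was the 1 probe set whose differences at the 2 CO2 levels were more than 1 log2 unit apart. Its medium- and high-light signals all lay below the floor of 20, so this gap comes from its low-light signals alone. 252367_at, 248163_at and AT1G06980 lay below the expression filter used for the tests further on.

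Bright genes differed in the size of their folds. CP5, which encodes a protein with a START-type lipid-binding domain, had signals of 2318.2, 1147.6 and 910.3 in low, medium, then high light in high CO2 and of 2251.0, 1320.2 and 1146.9 in ambient CO2. AT2G15960 had 1266.7, 507.9 and 507.3 in high CO2 and 1295.7, 474.6 and 465.3 in ambient CO2. The mean fold of low over medium light was 1.86 for CP5 and 2.61 for AT2G15960. AT2G15960 was about equally bright at the 2 CO2 levels in each light, and its signals in medium and high light nearly coincided.

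AT5G11420, a gene of the DUF642 family of cell wall proteins, had signals of 1158.6, 617.0 and 480.6 in low, medium, then high light in high CO2 and of 1217.4, 552.8 and 611.7 in ambient CO2. AT5G01750, of the LURP-one-related family, had 1036.3, 587.7 and 697.9 in high CO2 and 939.3, 460.5 and 595.6 in ambient CO2. AT3G61260, a remorin of the plasma membrane, had 927.8, 508.3 and 368.6 in high CO2 and 836.2, 470.6 and 481.0 in ambient CO2. Each of these 3 genes had its 2 highest signals in low light. Their order of medium and high light was not the same in all genes, with high light above medium light for AT5G01750 at both CO2 levels.

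DRT100, a leucine-rich repeat gene first isolated for its effect on DNA damage tolerance, had signals of 595.8, 298.9 and 263.6 in low, medium, then high light in high CO2 and of 544.2, 288.2 and 255.6 in ambient CO2. AT1G36980, AT1G65230 and AT2G29670 were also among the 12 brightest named genes, with low-light signals of 866.3, 554.3 and 528.8 in high CO2 and of 861.5, 661.1 and 605.9 in ambient CO2. The mean low-light signal of the 109 probe sets ranged from 53.0 to 2284.6 with a median of 194.6, against a median of 135.5 over the 9779 probe sets with a signal of 50 or more in both low-light arrays. It was 1000 or more in 8 of the 109 and under 100 in 22. The rule chose the 109 for a high signal in low light, so nothing is read from the difference between these medians.

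**Figure D2:**
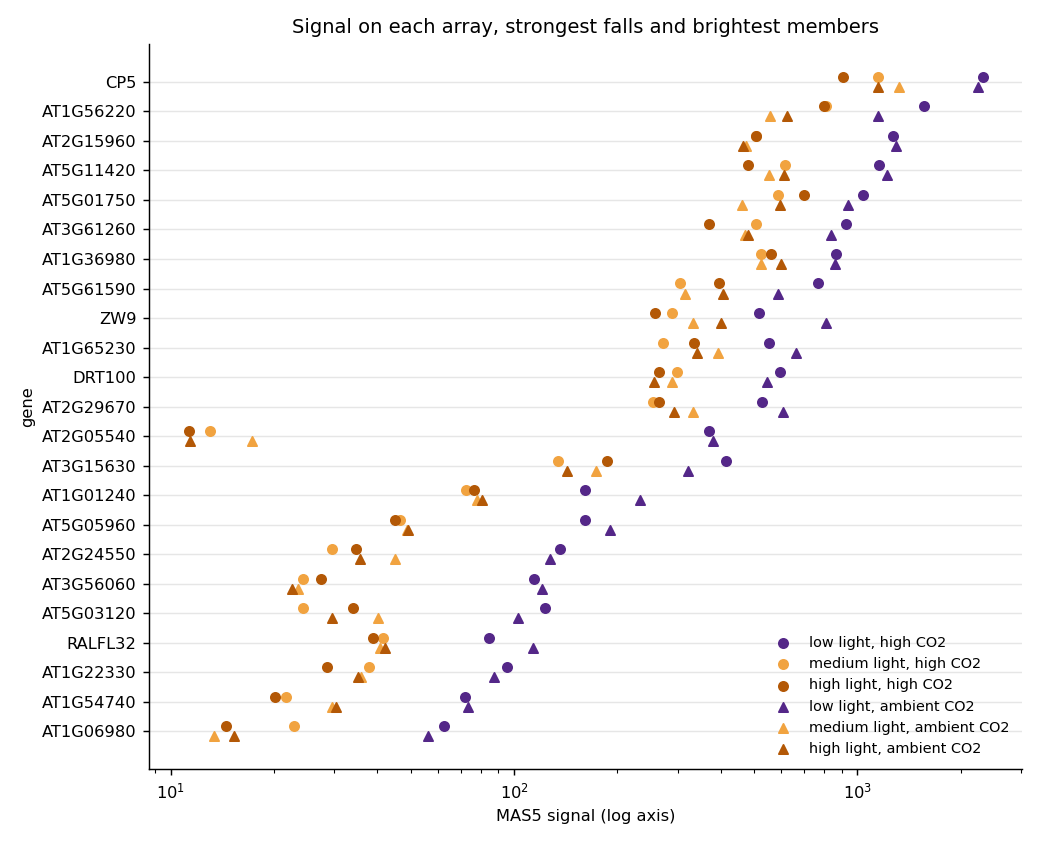
Signal of the named genes with the largest differences and of the brightest named genes on each array, on a log axis, with circles for high CO2, triangles for ambient CO2 and colour for light. In every gene shown both purple low-light points lie to the right of the other 4 points, from AT2G05540, whose other signals are 17.2 or less, to CP5, whose other signals are 910.3 or more.

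The genes were also grouped by what they are known to encode, in some cases only as a family. A role was given to 29 of the 59 genes, and the other 30 were left without one. The groups were drawn up after the values were seen and are a description. The share of each group over all named probe sets was not counted, so group sizes are not compared.

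Transcription factors numbered 3. AT5G61590, also called DEWAX, an ERF-type repressor of cuticular wax synthesis, had signals of 767.7, 305.1 and 395.5 in low, medium, then high light in high CO2 and of 589.1, 315.2 and 405.6 in ambient CO2. ORA47, an ERF-type factor that activates jasmonate synthesis genes, had 69.6, 39.7 and 30.9 in high CO2 and 107.5, 65.0 and 64.1 in ambient CO2. AT1G74840, a MYB-related gene, had 249.2, 125.7 and 123.1 in high CO2 and 187.5, 114.7 and 102.8 in ambient CO2. Within each CO2 level low light was highest for each factor, as the rule required. For ORA47 the low-light signal in high CO2 was only just above the medium-light signal in ambient CO2.

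Families linked to dormancy, starvation or stress gave 4 genes. AT1G56220, of the dormancy and auxin associated family and among the 12 brightest named genes, had signals of 1560.2, 809.8 and 797.6 in low, medium, then high light in high CO2 and of 1151.1, 558.1 and 623.8 in ambient CO2. AT4G27450, of the aluminium-induced family with YGL and LRDR motifs, had 122.1, 53.7 and 59.1 in high CO2 and 157.2, 71.1 and 57.0 in ambient CO2. Its relative AT3G15450, of the same family, was not among the 109 and is described with the energy starvation list. AT5G60680, of the DUF584 family that includes senescence regulators, was 2.16-fold higher in low than medium light in high CO2 and 2.03-fold in ambient CO2, and AT3G10020, known from oxygen shortage, was 2.52-fold and 1.97-fold higher.

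Cell wall and secreted proteins gave 7 genes. Beside AT2G05540, AT5G05960, AT5G11420 and RALFL32 they were AT3G16850, of the pectin lyase-like family, AT2G39850, a subtilisin-like protease, and BGLU33, a beta-glucosidase. AT3G16850 had signals of 363.3, 212.6 and 182.4 in low, medium, then high light in high CO2 and of 385.5, 213.9 and 159.3 in ambient CO2. BGLU33 had 237.3, 116.5 and 131.5 in high CO2 and 224.6, 132.9 and 119.4 in ambient CO2. AT2G39850 was 1.73-fold higher in low than medium light in high CO2 and 2.06-fold higher in ambient CO2. Folds in this group ran from 1.69 for BGLU33 to 3.90 for AT5G05960, apart from those of AT2G05540, which rest on the floor.

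Membrane and trafficking proteins gave 5 genes with folds of low over medium light from 1.63 to 2.08. Beside AT3G61260 these were the tetraspanin TET3, the prenylated Rab acceptor PRA8, AT1G72160, a patellin with a lipid-binding domain, and AT1G22550, of the NRT1/PTR transporter family. TET3 had signals of 252.5, 131.0 and 120.8 in low, medium, then high light in high CO2 and of 247.1, 119.2 and 141.8 in ambient CO2. AT1G72160 had 398.9, 192.0 and 209.6 in high CO2 and 421.9, 211.5 and 257.8 in ambient CO2. Both genes had their lowest low-light signal above their highest signal in the other lights.

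SDP1, the lipase that begins the breakdown of seed storage oil, had signals of 97.2, 53.0 and 57.3 in low, medium, then high light in high CO2 and of 90.6, 54.5 and 60.9 in ambient CO2. AT4G30690, which encodes an organelle-type translation initiation factor of the IF3 family, had 311.1, 166.0 and 182.6 in high CO2 and 346.6, 170.8 and 175.4 in ambient CO2. AT2G36320, with A20 and AN1 zinc fingers, was 2.16-fold higher in low than medium light in high CO2 and 1.95-fold in ambient CO2. Each of these genes had about 1 level in medium and high light, as the rule required. The copper amine oxidase gene AT3G43670, the oxygenase family gene AT3G46490, the RING finger gene AT3G61550 and the kinase gene AT2G31800 had folds between 1.65 and 2.17.

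The limit of -0.7 passed through a continuous range of values. Just inside it were AT1G22550, with medium minus low light of -0.702 in high CO2 and -0.717 in ambient CO2, AT4G05150 (-0.702 and -0.84) and 249930_at (-0.93 and -0.71). Just outside were 260267_at (-0.698 and -0.76), 249109_at (-1.46 and -0.69) and AT2G20230 (-0.71 and -0.69).

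A level signal between medium and high light was 1 of several courses taken by genes that were lower in medium than low light. With the same limit of -0.7 and minimum of 50 in low light, 287 probe sets were lower in medium light at both CO2 levels. Of these, 109 (38.0%) were level from medium to high light at both CO2 levels, 28 (9.8%) were lower again in high light at both, 39 (13.6%) were higher again in high light at both, and 111 differed between CO2 levels. Among the 111, 81 were level in high CO2 alone and 26 in ambient CO2 alone. Of the 81, 50 were lower again and 31 higher again in high light in ambient CO2. The share of each course over all probe sets was not taken, so nothing is read from how common each was. The rule applied to 1 CO2 level gave 429 probe sets in high CO2 and 292 in ambient CO2, of which the 109 shared were 25.4% and 37.3%.

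**Figure D3:**
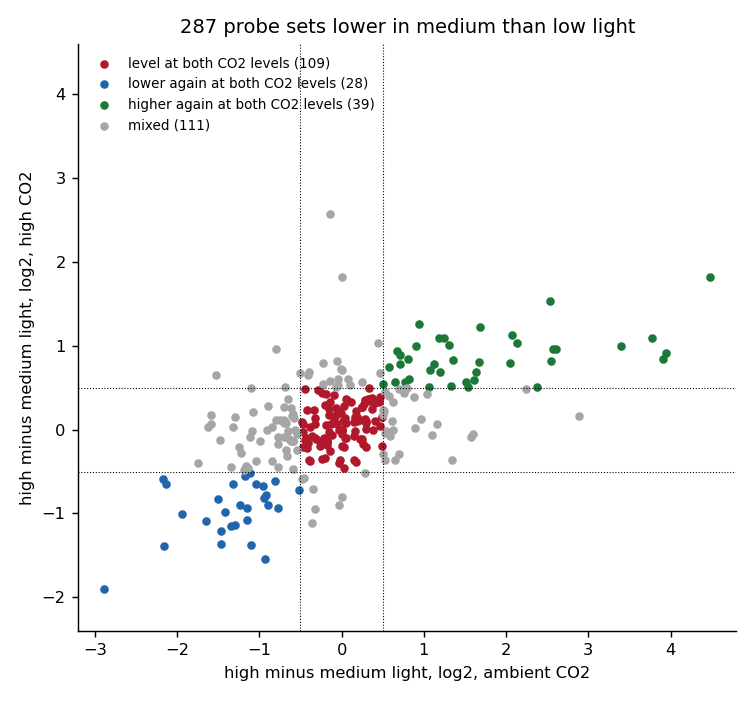
High minus medium light in log2 units, in ambient CO2 on the horizontal axis and in high CO2 on the vertical axis, for the 287 probe sets lower in medium than low light at both CO2 levels. The 109 red points lie by construction within the dotted limits of -0.5 and 0.5, and the points spread further along the ambient CO2 axis, up to 4.47, than along the high CO2 axis, up to 2.57.

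High against ambient CO2 was not a contrast of the rule. Raised CO2 is the factor that the series title names, and stomatal number was not part of the values used here. None of the 103 probe sets that passed the expression filter was called for CO2 in limma's fit of CO2 and light. Over all 13648 probe sets past the filter 0.0586% were called. With 1 array per combination and 2 residual degrees of freedom, the lack of a call does not show that CO2 left a gene unchanged. Among the 103 the lowest adjusted p in limma was 0.249. The other 6 lay below the filter and were not tested. An unadjusted p under 0.05 was reached by 20 of the 103 (19.4%), against 8.63% of all tested probe sets. The rule keeps the CO2 differences of a gene in medium and high light within 1 log2 unit of each other, and the standard error of the CO2 difference had a median of 0.13 in the 103 against 0.15 over all tested probe sets, so nothing is read from that share.

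The direction of the CO2 difference was mixed. Its median over the 103 was -0.03 log2 units, against 0.01 over all tested probe sets, with 47 above 0 and 56 below. Of the 109, 22 (20.2%) were higher in high CO2 at all 3 light levels and 26 (23.9%) lower at all 3, against 16.0% and 13.7% of the probe sets past the filter. The rule keeps the CO2 differences in medium and high light near each other, so nothing is read from these shares. By light level the median CO2 difference of the 109 was 0.01 in low, -0.05 in medium and 0 in high light. A difference of at least 0.5 either way was found in 9 of the 109 in low light (8.26%), 13 in medium light (11.9%) and 17 in high light (15.6%), against 10.4%, 13.7% and 14.3% of the probe sets past the filter.

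**Figure D4:**
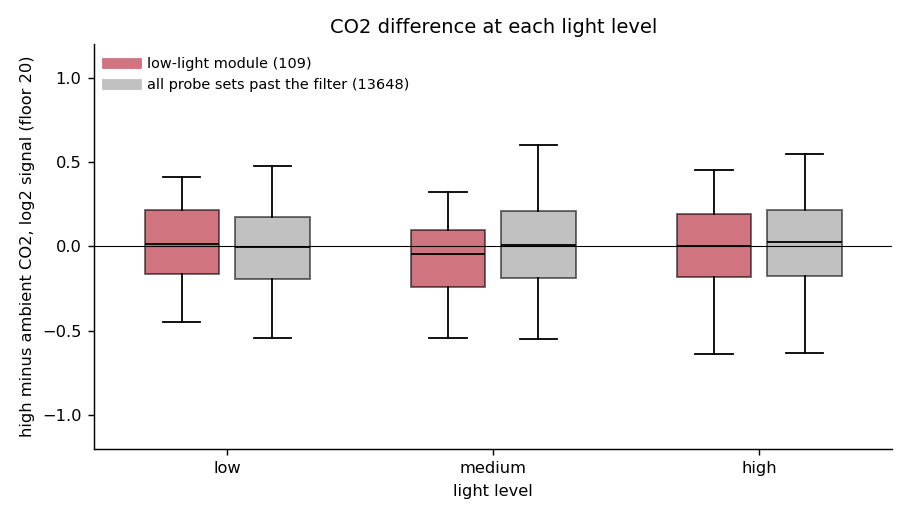
High minus ambient CO2 in log2 signal (signals below 20 set to 20) at each light level, for the 109 probe sets in red and for the 13648 probe sets past the filter in grey. Boxes span the quartiles with the median as a line, and whiskers run from percentile 5 to percentile 95. The boxes overlap at every light level, with medians between -0.05 and 0.03.

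ORA47 had the lowest CO2 value among the named genes. Its signal was lower in high CO2 than in ambient CO2 in each light, with log2 differences of -0.63 in low, -0.71 in medium and -1.05 in high light. The fit gave -0.80 ± 0.16 (SE), which did not pass (limma adjusted p = 0.249). ZW9, a gene with a TRAF-like domain, had -0.50 ± 0.12 (limma adjusted p = 0.314). It had signals of 516.3, 288.9 and 257.0 in low, medium, then high light in high CO2 and of 808.7, 332.9 and 399.9 in ambient CO2. AT5G66180 (-0.50 ± 0.19), AT5G57340 (-0.45 ± 0.17), AT5G14410 (-0.39 ± 0.14) and AT1G54740, at -0.36, were the other named genes with the lowest values. AT1G54740 had signals of 71.9, 21.6 and 20.1 in high CO2 and of 73.3, 29.6 and 30.4 in ambient CO2, so its low-light signals were nearly equal.

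AT1G56220 had the highest value, 0.44 ± 0.10 (limma adjusted p = 0.268), with log2 differences of 0.44, 0.54 and 0.35 in low, medium, then high light. AT3G43670 had 0.38 ± 0.14, AT2G31800 0.36 ± 0.14, AT3G10020 0.33 ± 0.13, AT3G61210, a methyltransferase family gene, 0.27 and AT1G74840 0.27. None of these passed. Of the unnamed probe sets, 245244_at (-0.67 ± 0.15) and 249208_at (-0.55 ± 0.13), chosen after their values were seen, came nearest, with limma adjusted p of 0.273 and 0.284. Without both high-light arrays, when 153 of all 13648 probe sets were called, 249208_at passed, with -0.68 ± 0.15 and an adjusted p of 0.0359 in limma. It had signals of 280.2 and 142.8 in low and medium light in high CO2 and of 434.7 and 235.0 in ambient CO2.

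Groups cut by rules of the same form, with the same limits and a minimum of 50 on the arrays that are high, gave values to set beside these. Of 36 probe sets that were level from low to medium light and lower in high light, 32 had a CO2 difference below 0, with a median of -0.29. Of 121 probe sets that were higher in medium than low light and then level, 68 were below 0, with a median of -0.03. No probe set of either group passed for CO2 in limma, with 18 of 36 (50%) and 17 of 121 (14%) at an unadjusted p under 0.05, against 8.63% of all tested probe sets. Over all 13648, 6621 were below 0. The rules of both groups also bound the spread behind these p-values, and the difference between the groups was not tested.

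The pathway lists were set up with earlier results of these data known, and of their 156 genes only 28 were measured by a named probe set. None of those 28 was among the 109, of which 45 have no name. Of the 26 list genes tested, 6 fell from low to medium light and 1 rose. Over all 13648 probe sets 2.16% fell and 2.37% rose in that comparison, which the rule also used, so these counts are a description. Between medium and high light 2 list genes fell, where 0.432% of all tested probe sets fell and 0.52% rose. The calls depended on the fit. All 6 falls from low to medium light were lost in limma without the filter and without the intensity trend, and those of AT2G26690 and APG8H were lost after quantile normalization, while LHCB4.3 passed in each.

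On the energy starvation list 2 of 6 tested genes fell. AT3G15450 had signals of 2278.2, 710.9 and 514.6 in low, medium, then high light in high CO2 and of 1533.7, 884.7 and 390.6 in ambient CO2, with medium minus low light of -1.24 ± 0.20 (limma adjusted p = 0.0225). AKINBETA1, a regulatory subunit of SnRK1, had 260.6, 97.2 and 102.6 in high CO2 and 258.8, 137.6 and 84.6 in ambient CO2, with -1.17 ± 0.20 (limma adjusted p = 0.0259). Both had their highest signals in low light, and in ambient CO2 their signals were lower again in high light by more than the limit of 0.5, which did not pass over both CO2 levels (limma adjusted p = 0.107 and 0.486). The ubiquitin ligase gene ATL8 (-0.56 ± 0.21) and MCCA, of leucine breakdown (-0.47 ± 0.18), did not pass, nor did MCCB or IVD.

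Of the other list genes, AT1G23390, a kelch-repeat F-box gene, had signals of 1183.2, 206.0 and 137.3 in low, medium, then high light in high CO2 and of 1007.3, 355.3 and 78.6 in ambient CO2, and its medium minus low light was -2.01 ± 0.32 (limma adjusted p = 0.0218). Its high minus medium light, -1.38 ± 0.32, did not pass (limma adjusted p = 0.0902). The expansin gene EXPA8 fell in both steps, by 1.13 ± 0.18 and 1.24 ± 0.18 log2 units (limma adjusted p = 0.0213 and 0.0286), while EXPA4 (0.28 ± 0.20) did not pass. Of 2 NRT1/PTR transporter genes, AT2G26690 fell from low to medium light (-0.91 ± 0.18, limma adjusted p = 0.0382), and AT3G21670 fell from medium to high light (-2.30 ± 0.19, limma adjusted p = 0.011).

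In the autophagy and leaf ageing list 1 of 6 tested genes fell from low to medium light. This was APG8H, an ATG8 gene of autophagosome formation, with signals of 290.5, 201.5 and 279.3 in low, medium, then high light in high CO2 and of 344.7, 195.6 and 285.1 in ambient CO2 and a difference of -0.67 ± 0.14 (limma adjusted p = 0.0408). ATG8E (-1.22 ± 0.28, limma adjusted p = 0.0523), ATG8F (-0.40 ± 0.17), APG8A (-0.27 ± 0.17), ATG8H and SAG101 did not pass. None of the 4 tested shade avoidance and auxin genes passed in either step, with IAA29 nearest at -0.83 ± 0.16 for high minus medium light (limma adjusted p = 0.0667). For medium minus low light IAA29 was at -0.57 ± 0.16, HAT2 at -0.16 ± 0.20, FHL at -0.27 ± 0.32 and YUC2 at -0.04 ± 0.18. In light harvesting LHCB4.3 rose from low to medium light (1.84 ± 0.13, limma adjusted p = 0.00335), whereas neither LHCB4.1 (0.11 ± 0.10) nor LHCB4.2 (-0.05 ± 0.10) passed. The clock gene GI (-0.18 ± 0.22) and the chlorophyll synthesis gene PORB (-0.02 ± 0.10) did not pass.

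**Figure D5:**
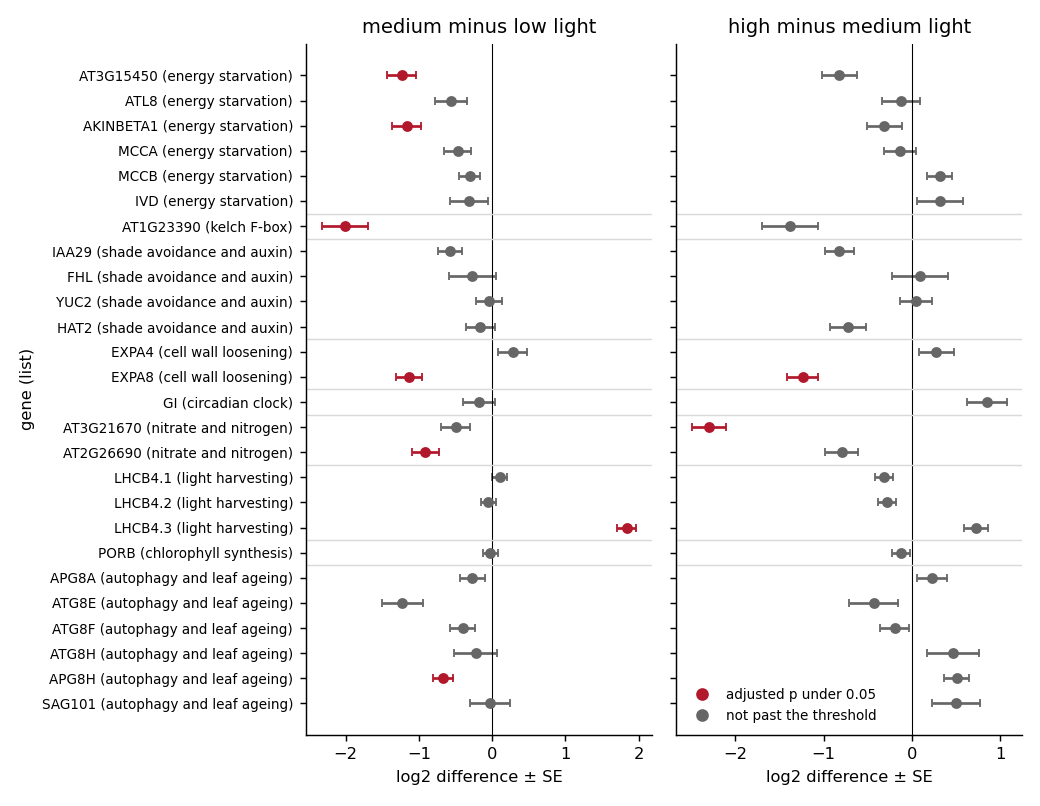
Log2 differences with their limma standard errors for the 26 tested genes of the pathway lists, medium minus low light on the left and high minus medium light on the right, with genes past an adjusted p of 0.05 in red. The 6 red points below 0 on the left belong to AT3G15450, AKINBETA1, AT1G23390, EXPA8, AT2G26690 and APG8H, and the 1 above 0 to LHCB4.3.

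The genes lay on all 5 chromosomes, with 17, 10, 14, 7 and 11 genes on chromosomes 1 to 5. No 2 of the 59 genes were direct neighbours. The closest were AT3G61180, AT3G61210 and AT3G61260 on chromosome 3, which lay 4 and 5 protein-coding genes apart. AT1G74840 and ORA47 on chromosome 1 lay 10 apart. Probe sets without a single gene name could not be placed. The spread of all named genes over the chromosomes was not counted, so nothing is read from these counts. Of the 4 probe sets that match several genes, each reads similar copies together, as for CYP71B19 and CYP71B20, and cannot be given to 1 gene.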

How the data were processed

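Biotin-labelled RNA was hybridised to 6 ATH1 arrays. The submitters' processing notes name MAS5, without its version, for the deposited values, which are linear signal intensity. The deposited columns shared a 2% trimmed mean of 100.01, so arrays were scaled before deposit. Low MAS5 signals are noisy on a log scale, and detection calls were not used. Precision is limited by the number of arrays.

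The members and gene lists were chosen with earlier results of these data known. The rule used all 6 arrays. The 64 control probe sets were left out. For tests, signals under 0.1 were raised to it before log2. The 60% with the highest mean log2 signal (26.7 or more as a mean signal) were fitted by limma 3.58.1 (R 4.3.3) with CO2 and with light as a factor, using eBayes with an intensity-dependent prior. The fit was also run on data simulated from its own model. Those data held no interaction of light and CO2, so the run says nothing about one. With 1 array per combination the spread is the departure from additivity, with 2 residual degrees of freedom. P-values were adjusted by Benjamini-Hochberg over all tested probe sets, with a threshold of 0.05. P-values measure the spread between these arrays only, which may be technical, as no label speaks of separate plantings. Python 3.11.15 drew the figures.

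Named genes were the 12 members with the largest mean difference from low to medium light, the 12 brightest in low light, up to 6 highest and 6 lowest by mean CO2 difference with 1 sign at all light levels, up to 4 unnamed members, the 3 nearest inside and outside the limit, and list genes. Genes named under roles were chosen after their values were seen. The annotation gave 1 gene for 13513 probe sets, several for 503 and none for 8730, and 13436 matched TAIR10.1, which gave symbols and gene order. The 11 pathway lists held 156 genes. The gibberellin and brassinosteroid list had no measured gene, and the light receptor list had HYH alone, below the filter with signals between 0.9 and 15.1. XTH33, of the shade list, was also below it, with 4.2 to 24.0.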

Additional observations from a re-analysis of the deposited data

Results flagged for a closer look

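In 2 of the 109 probe sets the CO2 difference (high minus ambient) in low light ran opposite to that in medium and high light, by at least 0.25 log2 units at every light level. 253220_s_at, which matches several genes, had -0.49 in low, 0.29 in medium and 0.42 in high light. 266215_at, unnamed here, had 0.38, -0.28 and -0.57. Each value is a difference between 2 arrays, and the difference between light levels was not tested. No group had enough arrays to look for a sample far from the others.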

How the results depend on the processing

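The number of probe sets meeting the rule was 36 with a limit of -1 in place of -0.7 and 57 with a limit of 0.3 in place of 0.5. It was 104 with a floor of 10, 118 with a floor of 40, 102 after quantile normalization and 86 with a signal of 100 or more, and 104, 103, 94 and 86 of these were among the 109. The count past the threshold for CO2 ranged from 0 to 1 with 1 array left out, and it was 1 without both high-light arrays, in each case 249208_at, which passed without either high-light array (adjusted p = 0.0428 and 0.0446). An array left out leaves its light level with 1 array, which adds nothing to the CO2 difference. Over all tested probe sets the CO2 count ranged from 8 to 144 with 1 array left out, with 144 and 141 without the high-light array in high CO2 and in ambient CO2. It was 0 in limma without a filter, without a trend and with the CO2 group from the atmosphere entry, with 1576, 1125 and 903 at an unadjusted p under 0.05. The median CO2 difference of the group ranged from -0.05 to 0.01 with 1 array left out. The 12 named CO2 values kept their sign and stayed short of the threshold under every alternative that gave a value. These genes were picked for 1 sign at all 3 light levels, so leaving out an array could not change it. Nothing is read from the kept sign. The count of list genes lower in medium than low light was 4 after quantile normalization, 0 without the filter and 0 without an intensity trend, where 14 and 11 list genes had an unadjusted p under 0.05 in either direction. LHCB4.3 passed under these 3. Promoter motifs were planned and not run, since no promoter sequences were used here. All labels carry replicate 1, so arrays could not be paired by replicate. The light term of the CO2 fit compares high and ambient CO2 within each light level.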
